A study of Mus musculus with 12 samples.

Results

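The genes described here are the mouse ATP-binding cassette (ABC) transporter family, taken as every protein-coding gene of GENCODE vM21 whose symbol starts with Abca to Abcg followed by a number. The rule found 50 genes of the 49315 in the count files. They were divided into 11 efflux pumps (Abcb1a, Abcb1b, Abcg2 and the Abcc drug and organic anion exporters) and the 39 remaining members. Their transcripts were measured by RNA-seq in forebrain endothelial cells (CD31+) isolated by sorting at E15.5, with 1 mouse embryo per library. There were 4 WT embryos, 4 Gpr124ΔC/ΔC embryos and 4 Gpr124-/- embryos. Gpr124 encodes an adhesion G protein-coupled receptor that brain endothelial cells use, together with RECK, to respond to WNT7 ligands. The ΔC allele carries a V5 tag followed by a stop codon shortly after the last transmembrane segment, so that most of the intracellular domain is lost in every cell that uses the gene. The Gpr124-/- embryos carry a lacZ null allele in the whole body. No cell type-specific Cre or drug treatment was used for these embryos, and the sort also removed CD140b+ pericytes and CD45+ leukocytes.

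ABC proteins use ATP to move lipids, drugs, metabolites and ions across membranes. In brain capillaries, P-glycoprotein (Abcb1a and Abcb1b in the mouse) and the breast cancer resistance protein (Abcg2) sit in the membrane facing the blood and return drugs and other small molecules to it, which is part of the blood-brain barrier. Other members load cholesterol onto apolipoproteins (Abca1, Abcg1), import fatty acids into peroxisomes (the Abcd genes), serve mitochondria and lysosomes, regulate potassium channels (Abcc8, Abcc9), or act on ribosomes without crossing a membrane (Abce1, the Abcf genes).

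The libraries held 13877572 to 22551163 reads on genes. Gpr124 itself, listed as Adgra2, was at 28.3 to 51.1 TPM (a transcript level corrected for gene length and library size) in WT, 34.1 to 63.4 TPM in Gpr124ΔC/ΔC and 4.03 to 6.29 TPM in Gpr124-/-, so no Gpr124-/- library went against its label. The ΔC allele keeps the transcript, and its level checks nothing there. Endothelial markers were high in every library. Their summed level was 10400 to 13400 TPM in WT, 5960 to 10400 in Gpr124ΔC/ΔC and 4660 to 5880 in Gpr124-/-, and this order was that of Cldn5 (means of 9177, 4994 and 2166 TPM), whereas Pecam1 had means of 491, 579 and 731 TPM. In Gpr124-/- against WT, Pecam1 and Cdh5 were higher and Tek, Erg and Cldn5 lower at an adjusted p under 0.05. The shares of all genes were 10.5% and 9.32%. Kdr and Tie1 did not pass. Markers of 2 blood lineages were higher in Gpr124-/- libraries. The 6 erythroid markers summed to 6650 to 11200 TPM in WT, 5340 to 9640 in Gpr124ΔC/ΔC and 17600 to 52500 in Gpr124-/-, and the 5 platelet markers to 231 to 455, 315 to 438 and 497 to 1440. The 5 neural progenitor markers summed to 474 to 545, 642 to 761 and 804 to 948 TPM, mainly through Vim (means of 487, 665 and 813 TPM). The other 4 passed in neither mutant against WT. Of these, Sox2 (1.85 and 1.35 TPM), Hes5 (3.54 and 1.82 TPM) and Fabp7 (24.2 and 22.3 TPM) had lower means in Gpr124ΔC/ΔC than in WT. The 5 neuron markers summed to 48.5 to 124 TPM in WT, 73.8 to 144 in Gpr124ΔC/ΔC and 105 to 133 in Gpr124-/-, and of these Stmn2 was at 9.87 to 19.6 TPM in WT and 26.0 to 40.1 TPM in Gpr124-/- (log2 fold change 1.25, adjusted p = 0.00109). The 6 fibroblast markers were at 68.5 TPM in WT KE8 and at most 17.9 TPM elsewhere, and the 5 choroid plexus markers ranged from 32.4 to 1570 TPM. The 7 macrophage markers summed to 16.8 TPM in Gpr124-/- KE4, mainly through C1qa, C1qb and C1qc, and to at most 5.16 TPM in each other library, with Ptprc, which encodes CD45, at 0 to 0.0822 TPM. The part of these markers in the results below was not tested. In bulk samples fewer cells of a type and less RNA per cell cannot be told apart.

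Some sequences bear on how the values below can be read. Abcb1a and Abcb1b are neighbours on chromosome 5, 49.6 kb apart, and arose from a gene duplication. Of all windows of 75 bases in the annotated Abcb1a transcripts, 12.5% also occurred in another family member, nearly all in Abcb1b, and 8.13% of the Abcb1b windows did so. For no other member was this share above 1.27%. The longest identical stretch of the pair was 338 bases in exons 13 and 14 of Abcb1a. The 135 bases below lie within it (GRCm38, plus strand, chr5:8702549-8702572 joined to chr5:8702793-8702903). They are shown because a read lying wholly inside the identical stretch fits both genes, and the capitals mark the codons of the ABC signature motif of the nucleotide-binding domain. The study's methods give paired reads longer than the 75-base windows and than the 135 bases shown. The shares above are therefore shares of windows and not of reads that fit both genes.

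Abcb1a and Abcb1b, shared coding sequence: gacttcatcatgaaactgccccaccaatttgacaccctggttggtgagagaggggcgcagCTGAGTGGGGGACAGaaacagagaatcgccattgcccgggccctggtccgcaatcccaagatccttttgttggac

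The signal that GPR124 serves ends at TCF/LEF factors on DNA, so the RefSeq promoters (GRCm38.p6) were searched for the letters of their core, CTTTGA or CTTTGT, on both strands. A promoter was available for 38 of the 50 members, with 45 start sites in all. At least 1 match lay in the 250 bases before the start at 14 of these 45 sites (31.1%), against 27.6% of all 32851 promoters of that length. The 250 bases are shown for the adjacent P-glycoprotein genes, which moved in opposite directions in Gpr124-/- cells, and for Abca1, which was lower in both mutants. Capitals mark the matches, which are a description and not a binding site. The RefSeq start of Abcb1a lies 92986 bases before the gene start used in the count files and its first bases are in no GENCODE vM21 transcript of the gene. The Abcb1b and Abca1 starts are those of the count files.

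Abcb1a, chr5:8566841-8567090, plus strand: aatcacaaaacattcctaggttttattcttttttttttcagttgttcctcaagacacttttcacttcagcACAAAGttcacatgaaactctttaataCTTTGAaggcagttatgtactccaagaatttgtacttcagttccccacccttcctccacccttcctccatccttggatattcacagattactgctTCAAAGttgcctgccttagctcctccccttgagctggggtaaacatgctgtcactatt
Abcb1b, chr5:8797897-8798146, plus strand: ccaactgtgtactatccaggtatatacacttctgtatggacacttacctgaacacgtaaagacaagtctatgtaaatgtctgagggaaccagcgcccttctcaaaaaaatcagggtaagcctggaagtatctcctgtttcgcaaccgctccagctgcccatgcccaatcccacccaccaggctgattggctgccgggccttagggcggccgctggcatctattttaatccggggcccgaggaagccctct
Abca1, chr4:53159896-53160145, minus strand: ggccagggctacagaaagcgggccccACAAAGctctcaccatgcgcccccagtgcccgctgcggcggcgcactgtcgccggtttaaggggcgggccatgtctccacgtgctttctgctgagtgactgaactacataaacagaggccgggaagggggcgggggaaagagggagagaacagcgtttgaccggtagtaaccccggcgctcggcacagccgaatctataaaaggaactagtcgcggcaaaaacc

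The 250 bases held 3 matches for Abcb1a, 0 for Abcb1b and 1 for Abca1. No match was found before any of the 3 Abcg2 starts or before the Abcc9 start. Abca4, which was lower in both mutants, also had none in its 250 bases, and Abca7, which was higher in Gpr124-/-, had 1. For Abcc1, Abcc3 and Abcc6 no promoter was available.

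In WT cells the family was dominated by a few members. Of the 50 genes, 27 had a mean of at least 1 TPM, 19 of at least 10 TPM and 9 of at least 50 TPM. The highest was Abcg2 (295 ± 38.9 TPM, SD, n = 4), which stood at rank 519 of 21811 protein-coding genes. It was followed by Abca1 (224 ± 15.9 TPM) and Abcf2 (126 ± 10.4 TPM), whose library values did not overlap with those of their neighbours in the order. Abcb1a (95.0 ± 17.7 TPM), Abce1 (80.1 ± 10.1 TPM), Abcf1 (79.1 ± 9.01 TPM) and Abcg1 (74.5 ± 4.08 TPM) came next, and the library values of neighbours in this order overlapped. Abcf3 (59.3 ± 9.87 TPM), Abcb8 (53.5 ± 6.35 TPM) and Abcd3 (45.7 ± 6.61 TPM) completed the 10 highest. The other barrier pumps were lower: Abcc4 had 32.2 ± 5.11 TPM, Abcc5 13.4 ± 1.86 TPM, Abcc1 2.05 ± 0.173 TPM and Abcb1b 0.882 ± 0.414 TPM. The 11 efflux pumps held 34.0% ± 1.71 of the summed TPM of the family, and Abcg2 alone held 65.1% ± 1.53 of the pumps' sum.

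**Figure D1:**
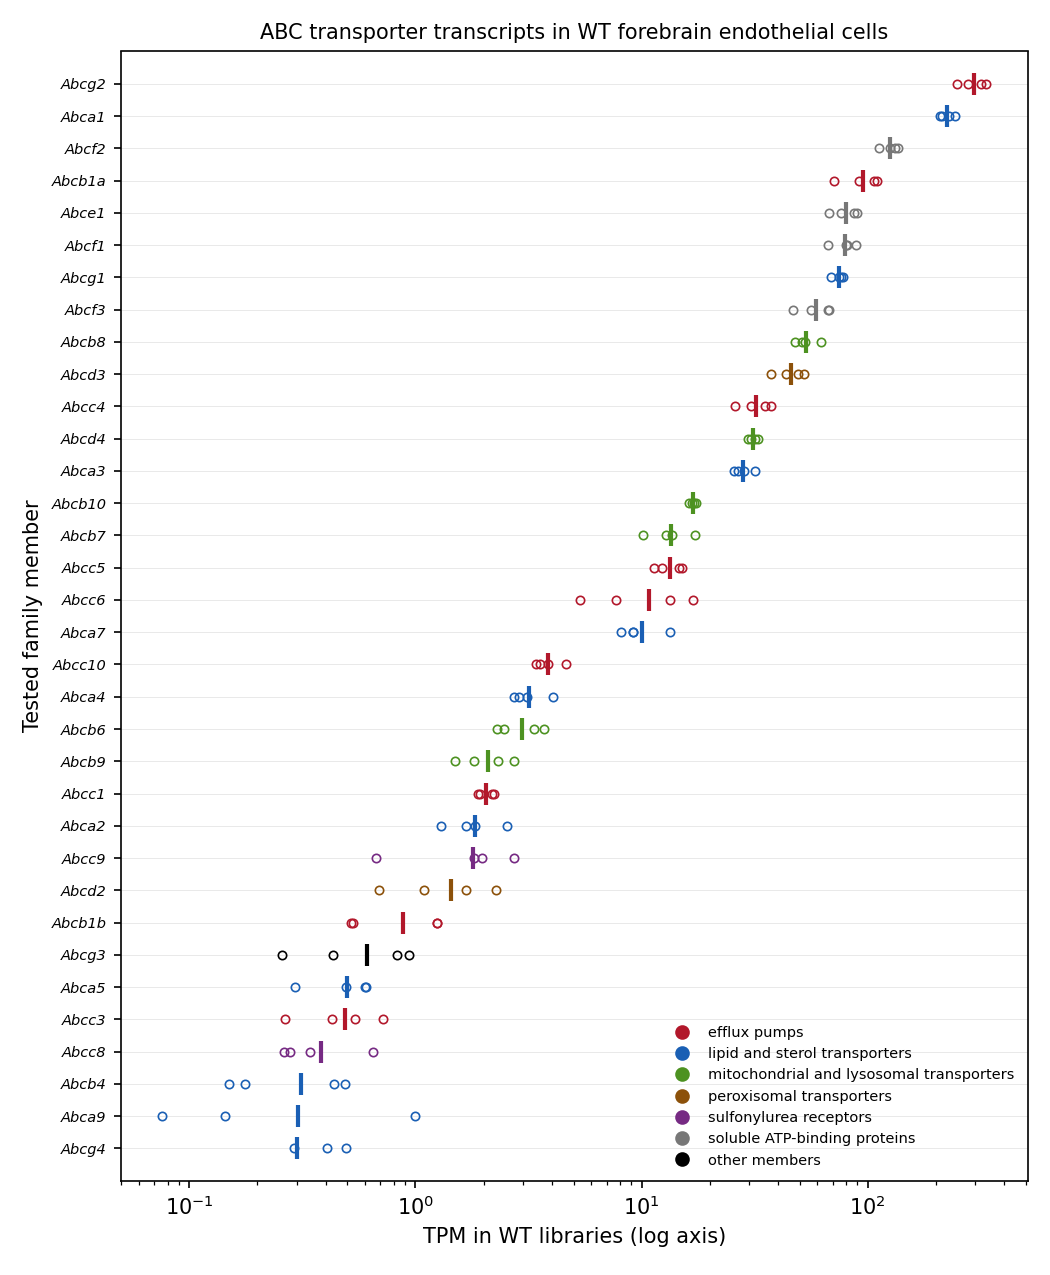
TPM of the tested members (1 is not shown) in WT libraries on a log axis; circles are the 4 libraries, vertical bars their mean, and colours the functional lists (a library value of 0 is not drawn). Abcg2 and Abca1 are highest, and the means of Abcb1b and Abcc3 lie below 1 TPM.

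Counts were sufficient to test 35 of the 50 members, 9 of the 11 efflux pumps and 26 of the 39 others. Each of the 35 reached the minimum of 10 reads, scaled to library size, in at least 1 library of every genotype, and 29 did so in all 12 libraries. The 15 members not tested were Abca6, Abca8a, Abca8b, Abca12, Abca13, Abca14, Abca15, Abca16, Abca17, Abcb5, Abcb11, Abcc2, Abcc12, Abcg5 and Abcg8. They had at most 14 reads and at most 0.777 TPM in any library, and 4 of them had no read in any. The group includes Abcb11 and Abcc2, the bile salt and conjugate exporters of the liver, and Abcg5 with Abcg8, the sterol pump of liver and gut.

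The comparison of Gpr124-/- with WT asks what complete loss of the receptor did to these transcripts. Here a member counts as called where its adjusted p was below 0.05 and its level moved by more than 1 on the log2 scale. In Gpr124-/- cells 4 members rose (Abcb1b, Abcc1, Abcc3, Abcc9) and 3 fell (Abcb1a, Abcc6, Abca1). Among all 16637 genes tested, 5.67% were called higher and 4.21% lower. With the adjusted p alone, 6 members were higher and 6 lower, beside 10.5% and 9.32% of all genes. The remaining 23 tested members did not pass. The median log2 fold change was -0.01 over the 9 tested pumps, -0.09 over the 26 other members and -0.01 over all genes. Of the 9 pumps, 3 were called higher and 2 lower, and of the 26 others, 1 and 1.

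Among the pumps, the abundant and the scarce P-glycoprotein gene went opposite ways. Abcb1a (ENSMUSG00000040584, chr5:8660077-8748575), the main P-glycoprotein gene of mouse brain capillaries, was at 92.0, 71.2, 110 and 107 TPM in the WT libraries JE1, JE6, KE8 and LE6. It was at 54.6, 68.2, 82.4 and 90.6 TPM in the Gpr124ΔC/ΔC libraries JE3, JE4, LE2 and LE5, and at 47.9, 24, 32.1 and 21.1 TPM in the Gpr124-/- libraries KE4, ME1, ME4 and ME5. All Gpr124-/- values lay below all others, while Gpr124ΔC/ΔC overlapped with WT. In Gpr124-/- against WT the log2 fold change was -1.65 ± 0.21 (SE) (adjusted p = 9.60e-05), -0.44 ± 0.20 in Gpr124ΔC/ΔC against WT (adjusted p = 0.333) and -1.20 ± 0.20 between the mutants (adjusted p = 0.00334). With the first letter of the embryo names as a further term (described below), the Gpr124ΔC/ΔC value was -0.44 ± 0.12 and passed (adjusted p = 0.0455), whereas the difference between the mutants was -0.80 and did not (adjusted p = 0.175).

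Abcb1b (ENSMUSG00000028970, chr5:8798147-8866315), the second rodent P-glycoprotein gene, was at 0.530, 0.516, 1.24 and 1.24 TPM in WT. It was at 1.16, 1.42, 1.29 and 1.12 TPM in Gpr124ΔC/ΔC and at 1.78, 2.09, 1.83 and 1.72 TPM in Gpr124-/-. The Gpr124-/- values lay above all others, and the WT libraries fell into a lower pair, with the letter J, and a higher pair, with K and L. The log2 ratio of Gpr124ΔC/ΔC to WT mean TPM was 1.30 within letter J and -0.04 within letter L. The rise in Gpr124-/- was 1.05 ± 0.27 on the log2 scale (adjusted p = 0.0143), just past the threshold, and it was 0.86 without WT JE1, 0.90 without WT JE6 and 0.96 without Gpr124-/- ME1, which ends the call. The values rest on 191 reads over the WT libraries and 361 over the Gpr124-/- libraries. Abcb1b made up 0.889% ± 0.287 of the TPM of the pair in WT, 1.72% ± 0.411 in Gpr124ΔC/ΔC and 6.13% ± 2.05 in Gpr124-/-, so the summed level followed Abcb1a, with means of 95.8, 75.2 and 33.1 TPM. With the counts of the pair added, the log2 fold change in Gpr124-/- was -1.55 ± 0.19 (adjusted p = 9.27e-05). How reads from the shared stretches were assigned is not given in the sources used here, and 10.1% of the exonic bases of Abcb1a also lie in a gene model on the opposite strand.

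Abcg2 (ENSMUSG00000029802, chr6:58584523-58695676) was at 277, 249, 335 and 317 TPM in WT. It was at 274, 353, 409 and 395 TPM in Gpr124ΔC/ΔC and at 272, 192, 227 and 139 TPM in Gpr124-/-. The Gpr124-/- range overlapped with WT through library KE4 but lay below all Gpr124ΔC/ΔC libraries. Against WT the log2 fold change of Gpr124-/- was -0.55 ± 0.15 (adjusted p = 0.0194), short of the fold threshold, and -0.75 ± 0.15 against Gpr124ΔC/ΔC (adjusted p = 0.00865). The first of these had an adjusted p of 0.0512 without WT KE8 and of 0.0505 without Gpr124-/- ME1, of 0.118 to 0.166 in the 3 limma fits on log2 TPM, and of 0.544 (log2 fold change -0.34) with the letter term. The second had an adjusted p of 0.0543 and 0.0657 in 2 of the limma fits and of 0.536 with the letter term. The ratio of Abcg2 to Abcb1a TPM was 3.13 ± 0.245 in WT, 4.88 ± 0.361 in Gpr124ΔC/ΔC and 6.83 ± 0.968 in Gpr124-/-, with no overlap between the genotypes (2.97 to 3.5, 4.35 to 5.18 and 5.69 to 8).

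The Abcc pumps, which export conjugated and anionic compounds, moved both ways. Abcc6 (ENSMUSG00000030834, chr7:45967555-46030302), which mediates release of ATP and thereby supplies the calcification inhibitor pyrophosphate, was at 7.67, 5.32, 13.3 and 16.9 TPM in WT. It was at 3.15, 6.04, 5.43 and 5.91 TPM in Gpr124ΔC/ΔC and at 2.09, 1.70, 2.22 and 1.15 TPM in Gpr124-/-. It was the tested member with the largest fall in Gpr124-/-, with no overlap with either other genotype (log2 fold change -2.61 ± 0.32, adjusted p = 8.03e-05). In Gpr124ΔC/ΔC the fold change was -1.15 ± 0.30 with an adjusted p of 0.0524, just outside the threshold.

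Abcc1 (ENSMUSG00000023088, chr16:14361558-14475737), an exporter of glutathione conjugates and leukotriene C4, was at 2.17, 1.92, 1.89 and 2.23 TPM in WT. It was at 2.55, 3.11, 4.37 and 3.17 TPM in Gpr124ΔC/ΔC and at 4.15, 3.84, 5.24 and 5.87 TPM in Gpr124-/-. Both mutants lay wholly above WT, and the log2 fold change passed the test in Gpr124-/- (1.18 ± 0.17, adjusted p = 0.00024) but not in Gpr124ΔC/ΔC (0.59 ± 0.16, adjusted p = 0.0695). The Gpr124ΔC/ΔC value did pass with DESeq2 (adjusted p = 0.0296), with a minimum mean of 50 counts (0.0456), in the fit of the 2 genotypes (0.0473) and without Gpr124-/- ME5 (0.0339). Between the mutants it was 0.59 ± 0.16 (adjusted p = 0.0425), and leaving out single libraries gave adjusted p values of 0.0269 to 0.114, the limma fits 0.133 to 0.16.

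Abcc3 (ENSMUSG00000020865, chr11:94343295-94392997), an exporter of bile salts and glucuronides, was at 0.541, 0.429, 0.264 and 0.720 TPM in WT. It was at 0.457, 0.974, 0.824 and 1.27 TPM in Gpr124ΔC/ΔC and at 2, 2.17, 1.60 and 2.90 TPM in Gpr124-/-. The Gpr124-/- values lay above all others at a low level, with 77 reads over the WT libraries and 299 over the Gpr124-/- libraries. The log2 fold change was 2.11 ± 0.34 against WT (adjusted p = 0.000668) and 1.36 ± 0.33 against Gpr124ΔC/ΔC (adjusted p = 0.0213). The second of these had an adjusted p of 0.0625 without Gpr124ΔC/ΔC LE2, 0.0551 without Gpr124-/- ME1 and 0.0648 without Gpr124-/- ME5.

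Abcc4 (ENSMUSG00000032849), an exporter of cyclic nucleotides, prostaglandins and drugs, behaved otherwise. It was at 25.9 to 37.4 TPM in WT, 16.7 to 21.9 TPM in Gpr124ΔC/ΔC and 17.0 to 32.9 TPM in Gpr124-/-, where KE4 was the lowest library. The log2 fold change was -0.76 ± 0.19 in Gpr124ΔC/ΔC (adjusted p = 0.0468) and -0.31 ± 0.19 in Gpr124-/- (adjusted p = 0.311), and between the mutants it was 0.45 ± 0.19 (adjusted p = 0.189). The Gpr124ΔC/ΔC value passed narrowly, with adjusted p values from 0.0066 to 0.121 as single libraries were left out and of 0.143 to 0.2 in the limma fits. Between the mutants the difference was 0.62 without Gpr124-/- KE4 and then passed (adjusted p = 0.0167). Abcc5, another exporter of cyclic nucleotides, had means of 13.4, 16.0 and 15 TPM in WT, Gpr124ΔC/ΔC and Gpr124-/-, with an adjusted p of 0.535 in Gpr124-/- against WT and 0.637 in Gpr124ΔC/ΔC against WT. Abcc10 did not pass in any comparison (adjusted p of 0.924 to 0.979).

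**Figure D2:**
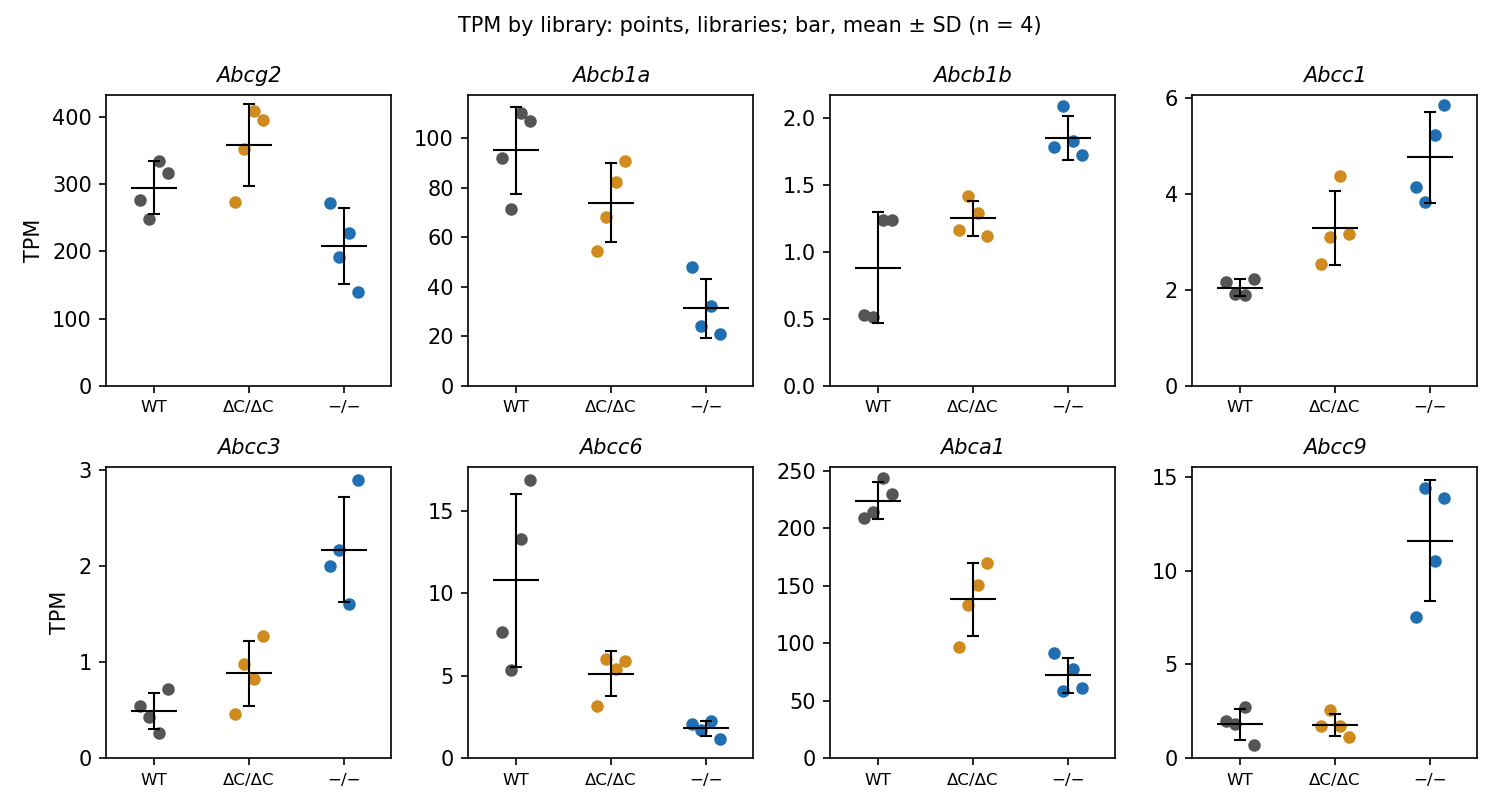
TPM of 8 members by library in WT, Gpr124ΔC/ΔC and Gpr124-/- cells, on linear axes that start at 0; points are libraries and bars the mean ± SD (n = 4). Abcb1a, Abcc6 and Abca1 are lower in Gpr124-/- and Abcb1b, Abcc1, Abcc3 and Abcc9 higher, each without overlap with WT, and Abcg2 overlaps with WT through 1 library.

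Among the lipid transporters, Abca1 (ENSMUSG00000015243, chr4:53030787-53159895) was highest in WT and lowest in Gpr124-/-. This protein loads cholesterol and phospholipid onto apolipoproteins. It was at 209, 214, 244 and 230 TPM in WT, 96.3, 133, 151 and 170 TPM in Gpr124ΔC/ΔC and 91.1, 58.5, 77.6 and 61.0 TPM in Gpr124-/-. The 3 genotypes did not overlap. The log2 fold change was -1.69 ± 0.13 in Gpr124-/- against WT (adjusted p = 2.39e-06), -0.80 ± 0.13 in Gpr124ΔC/ΔC against WT (adjusted p = 0.00363) and -0.89 ± 0.13 between the mutants (adjusted p = 0.0016). The Gpr124ΔC/ΔC value did not pass in the 3 limma fits (log2 fold change -0.73, adjusted p of 0.0715 to 0.103), and the difference between the mutants did not pass with the letter term (-0.65, adjusted p = 0.32). The summed TPM of the 22 lipid and sterol transporters was 344 ± 15 in WT, 268 ± 49.0 in Gpr124ΔC/ΔC and 216 ± 16.0 in Gpr124-/-. By mean TPM, Abca1 was the highest member in the first 2 genotypes and Abcg1 in Gpr124-/-.

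Abca4 (ENSMUSG00000028125, chr3:122044443-122180123), known as the retinoid-lipid transporter of photoreceptors, was at 2.74, 2.86, 4.05 and 3.10 TPM in WT. It was at 1.30, 2.06, 1.17 and 1.76 TPM in Gpr124ΔC/ΔC and at 1.38, 1.70, 1.72 and 1.88 TPM in Gpr124-/-. Both mutants lay below WT and overlapped with each other. The log2 fold change was -1.09 ± 0.20 in Gpr124ΔC/ΔC (adjusted p = 0.00614) and -0.96 ± 0.20 in Gpr124-/- (adjusted p = 0.00345), and between the mutants it was 0.13 ± 0.20 (adjusted p = 0.735). The Gpr124ΔC/ΔC value was -0.98 without WT KE8 and -0.96 without Gpr124ΔC/ΔC LE2, which ends the call on the fold threshold. Abca7, a phospholipid transporter linked to phagocytosis, was at 8.14 to 13.4 TPM in WT and 11.4 to 28.6 TPM in Gpr124-/- (log2 fold change 0.96 ± 0.26, adjusted p = 0.0186), and had an adjusted p of 0.0537 without WT JE1 and 0.053 without Gpr124-/- ME5. Abcg1, which passes sterol to high-density lipoprotein, had means of 74.5, 81.6 and 92.6 TPM in WT, Gpr124ΔC/ΔC and Gpr124-/- and did not pass (adjusted p = 0.103 in Gpr124-/-). Of the 22 genes in this list 10 could be tested. In Gpr124-/- 1 rose by adjusted p and 2 fell, beside 10.5% and 9.32% of all genes, and in Gpr124ΔC/ΔC none rose and 2 fell, beside 1.85% and 2.24%.

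Abcc9 (ENSMUSG00000030249, chr6:142587862-142702315) was the tested member with the largest rise. It encodes SUR2, the regulatory subunit of ATP-sensitive potassium channels built on the pore protein Kir6.1, the product of the adjacent gene Kcnj8, and in brain vessels it is known as a pericyte and smooth muscle gene. Abcc9 was at 1.96, 1.82, 2.72 and 0.672 TPM in WT, 1.69, 2.57, 1.71 and 1.12 TPM in Gpr124ΔC/ΔC and 7.50, 14.4, 10.5 and 13.9 TPM in Gpr124-/-. WT and Gpr124ΔC/ΔC overlapped, and every Gpr124-/- library was above both. In Gpr124-/- against WT the log2 fold change was 2.66 ± 0.39 (adjusted p = 0.000327), 2.75 ± 0.39 against Gpr124ΔC/ΔC (adjusted p = 0.00118) and -0.10 ± 0.38 in Gpr124ΔC/ΔC against WT (adjusted p = 0.971). The sum of the 7 other pericyte markers was 29.4 to 60.5 TPM in WT, 14.2 to 28.6 TPM in Gpr124ΔC/ΔC and 18.3 to 32.1 TPM in Gpr124-/-, so it was not higher in Gpr124-/- than in WT. Its highest members in WT were Rgs5 and Higd1b, with means of 17.4 and 14.4 TPM there and 6.56 and 8.1 TPM in Gpr124-/-. The sum therefore says little about the lower markers. Of the 7 markers, Rgs5 fell in Gpr124-/- against WT (log2 fold change -1.47, adjusted p = 0.0186), and Pdgfrb had means of 2.58 and 2.49 TPM (adjusted p = 0.911). Notch3 went the other way, with means of 0.926 TPM in WT and 1.71 TPM in Gpr124-/- (log2 fold change 0.85, adjusted p = 0.186). Of the 8 listed pericyte genes, Abcc9 included, 3 had a positive log2 fold change against WT and 5 a negative one. Against Gpr124ΔC/ΔC 6 were positive and 2 negative, and only Abcc9 and Kcnj8 passed. Kcnj8 had means of 6.09 TPM in WT, 2.64 TPM in Gpr124ΔC/ΔC and 6.86 TPM in Gpr124-/-, with a log2 fold change of 0.14 against WT (adjusted p = 0.836) and 1.43 against Gpr124ΔC/ΔC (adjusted p = 0.0324). Abcc8, the other sulfonylurea receptor, was at 0.263 to 1.24 TPM over all 12 libraries and did not pass.

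**Figure D3:**
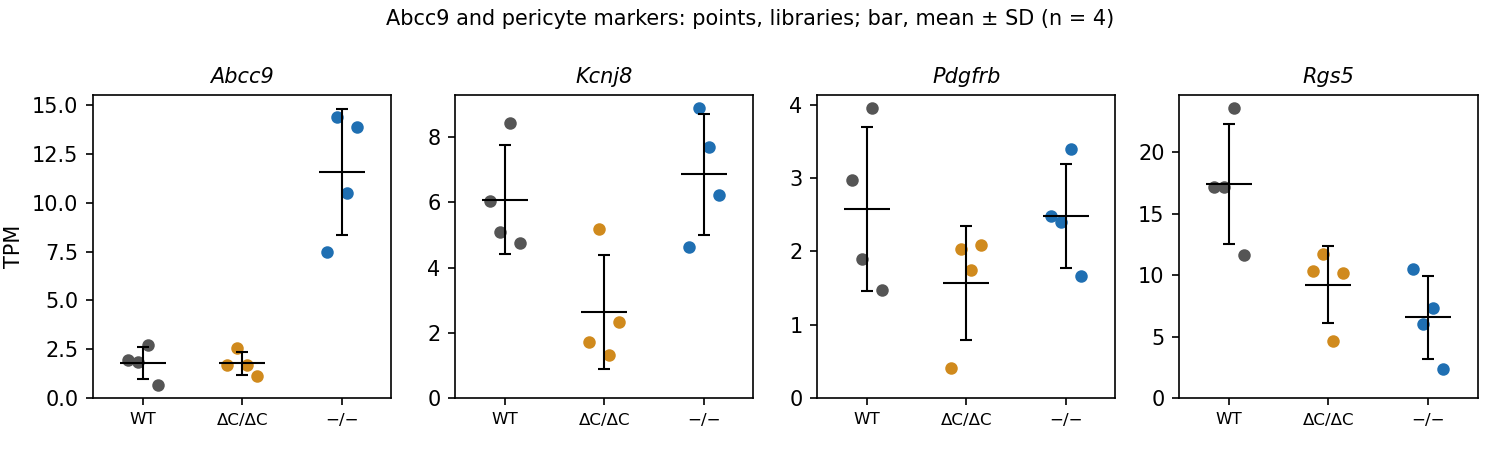
TPM by library of Abcc9, of its channel partner Kcnj8 and of the pericyte markers Pdgfrb and Rgs5, on linear axes that start at 0; points are libraries and bars the mean ± SD (n = 4). Abcc9 is at 7.50 to 14.4 TPM in Gpr124-/- and at most 2.72 TPM elsewhere, while the 3 other genes are not higher in Gpr124-/- than in WT beyond their spread.

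The intracellular members changed little. Abcd3, the major peroxisomal membrane ABC protein, fell in Gpr124-/- (log2 fold change -0.52, adjusted p = 0.0319), from 37.5 to 52.5 TPM in WT to 23.7 to 38.0 TPM. Its adjusted p was between 0.0122 and 0.0802 when single libraries were left out, and it exceeded the threshold without WT KE8 or LE6 and without Gpr124-/- ME1 or ME5. Abcd2, another member of this group, had means of 1.43 TPM in WT and 2.56 TPM in Gpr124-/- (log2 fold change 0.81, adjusted p = 0.0591) and a log2 fold change of 0.53 in Gpr124ΔC/ΔC, and did not pass in any comparison. None of the 6 mitochondrial and lysosomal members passed in either mutant against WT. Abcb8, of the inner mitochondrial membrane, was lower in Gpr124-/- than in Gpr124ΔC/ΔC (log2 fold change -0.47 ± 0.12, adjusted p = 0.0286), with adjusted p values up to 0.0891 as single libraries were left out. Abcb10, a mitochondrial member needed in erythroid cells, was at 16.2 to 17.5 TPM in WT and 14.1 to 17.9 TPM in Gpr124-/-, beside the erythroid marker sums given above. The 4 soluble members, Abce1 (a ribosome recycling factor), Abcf1 (a translation factor), Abcf2 and Abcf3, had log2 fold changes of -0.25 to 0.06 in Gpr124-/- and -0.09 to 0.11 in Gpr124ΔC/ΔC, and none passed in any comparison. Abcg3, assigned to none of these lists, was below 1 TPM in every library.

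**Figure D4:**
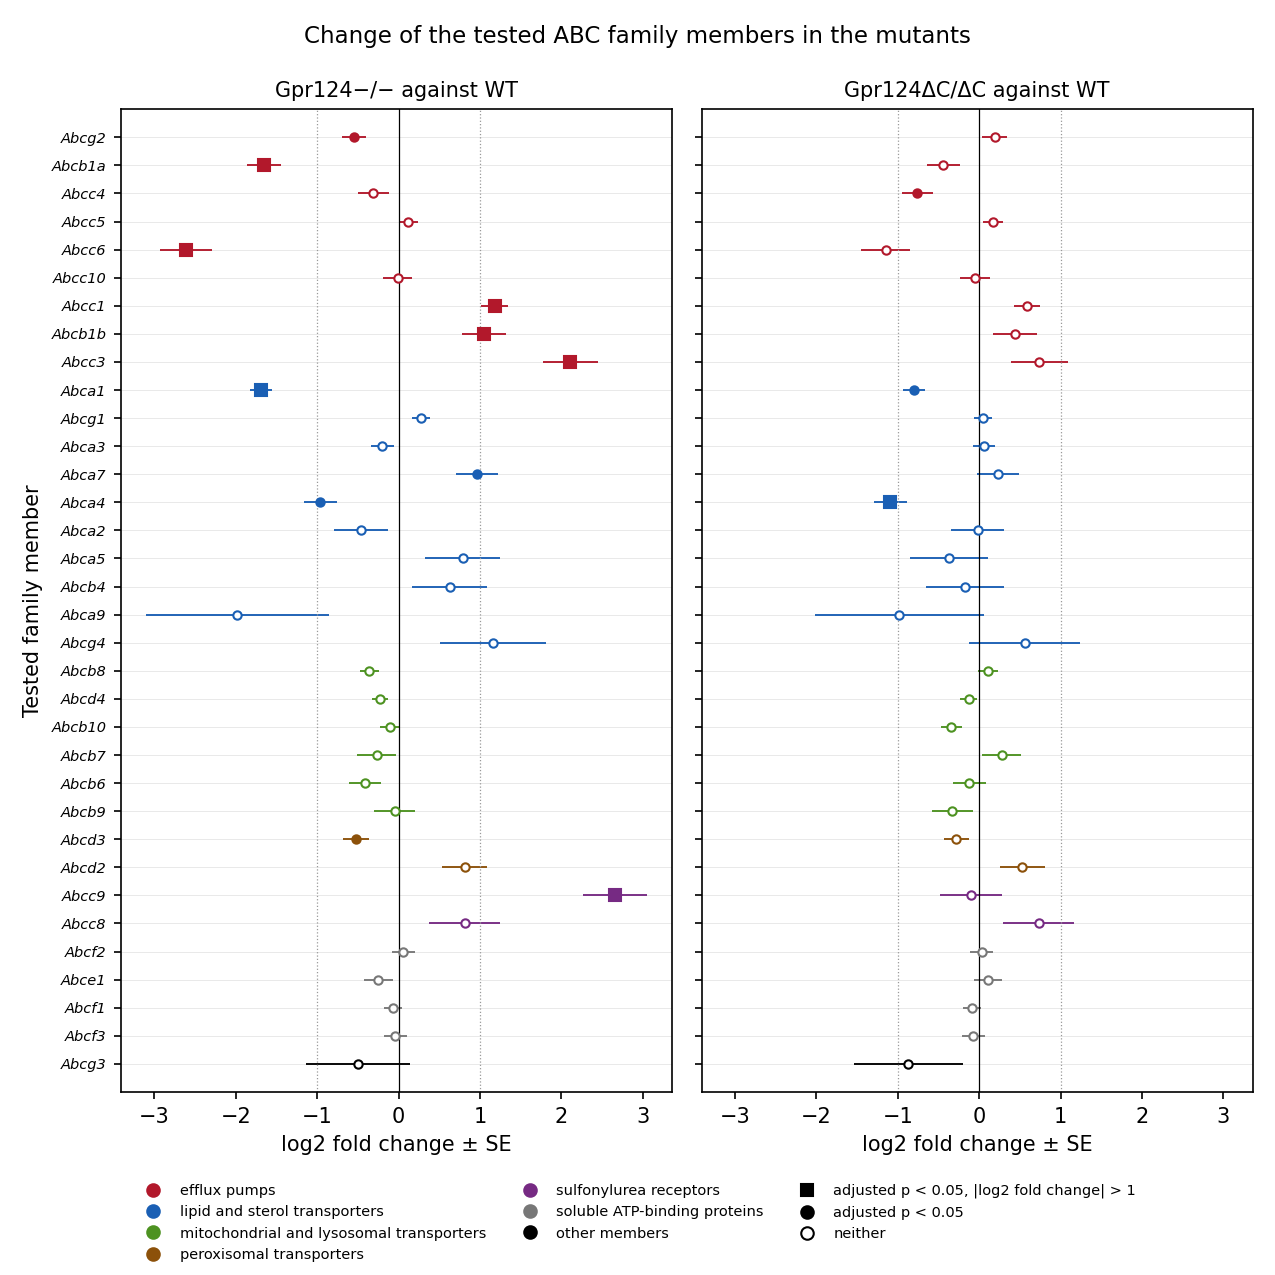
log2 fold change ± SE of the tested members (1 is not shown) against WT in Gpr124-/- (left) and Gpr124ΔC/ΔC (right), with colours for the functional lists; squares are called members, filled circles pass the adjusted p alone, open circles neither, and dotted lines mark a log2 fold change of 1 in each direction. In Gpr124-/- 7 members are called, in Gpr124ΔC/ΔC only Abca4.

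The comparison of Gpr124ΔC/ΔC with WT asks how the ΔC allele changed these transcripts. The receptor protein is not measured in these RNA data. By other measurements, the study reports less of the ΔC protein than of the WT protein in brain endothelial cells, on the surface and in total. Loss of the intracellular domain and a change in the amount of protein therefore cannot be told apart here. Only Abca4 was called, lower, and no member was called higher, beside 0.89% of all genes called higher and 1.03% called lower. With the adjusted p alone 3 members were lower (Abca1, Abca4, Abcc4) and none higher, beside 1.85% higher and 2.24% lower of all genes. At an unadjusted p under 0.05, edgeR gave 2 members higher and 6 lower, beside 14.4% of all genes in either direction. With the fold threshold, DESeq2 and the limma fits also called none higher. The median log2 fold change was 0.17 over the 9 tested pumps, -0.08 over the other 26 members and 0.01 over all genes. Abcg2 held 74.2% ± 0.761 of the pumps' TPM and the pumps 36.8% ± 0.65 of the family's TPM.

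The direct comparison of Gpr124-/- with Gpr124ΔC/ΔC tests the difference between the mutants, whose comparisons with WT share the WT libraries. Abcc3 and Abcc9 were called higher in Gpr124-/- and Abcb1a and Abcc6 lower, beside 2.67% and 1.94% of all genes. With the adjusted p alone, 3 members were higher, Abcc1 being added, and 5 lower, Abca1, Abcb8 and Abcg2 being added, beside 4.93% and 3.89% of all genes. The log2 fold change of Abcc6 was -1.47 ± 0.31 (adjusted p = 0.0125). The median log2 fold change was 0.04 over the pumps and 0.06 over the other members. The summed TPM of the pumps was 295 ± 60.4 in Gpr124-/-, 482 ± 83.7 in Gpr124ΔC/ΔC and 453 ± 66.8 in WT, and the pumps held 28.6% ± 4.47 of the family's TPM in Gpr124-/-.

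Each embryo name begins with J, K, L or M, a letter whose meaning is not given. The Gpr124-/- libraries ME1, ME4 and ME5 share a letter with no other genotype, so for them letter and genotype cannot be told apart. Letter K held 1 WT and 1 Gpr124-/- library, KE8 and KE4, without replication. The log2 ratio of their TPM was -1.20 for Abcb1a, 0.51 for Abcb1b, -0.30 for Abcg2, 1.14 for Abcc1, 2.92 for Abcc3, -2.67 for Abcc6, -1.42 for Abca1 and 1.47 for Abcc9, each with the sign of the comparison of all libraries. In a fit with the letter as a further term, the estimate of Gpr124-/- against WT is that of KE4 against KE8, 1 library each, and its p-values take the spread from the libraries of the other letters, so they are no replicate check of this difference. In it Abcb1a, Abcc6, Abca1, Abcc3 and Abcc9 were called, Abcb1b (log2 fold change 0.47, adjusted p = 0.754) and Abcc1 (1.09, adjusted p = 0.065) were not, and Abca4 and Abcc4 (-1.60 and -1.18, both with an adjusted p of 0.0149) were added. By adjusted p alone, Abca7, Abcd3 and Abcg2 no longer passed there (adjusted p of 0.55, 0.304 and 0.544). In Gpr124ΔC/ΔC against WT, the letter term brought Abcb1a (adjusted p = 0.0455) and Abcc6 (-1.05, adjusted p = 0.0239) past the test. No member was called between the mutants in that fit. KE4, on which the comparison within letter K rests, was also the library with the highest macrophage marker sum (16.8 TPM, against 4.0 TPM in KE8), whose part was not tested. For Gpr124ΔC/ΔC against WT the log2 ratio was -0.88 within letter J and -0.52 within letter L for Abca1, -0.74 and -1.08 for Abca4, -0.66 and -0.55 for Abcc4, and -0.50 and -1.57 for Abcc6.

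Other genes of the same pathways were counted from lists of ABC proteins under other symbols, regulators of ABC genes and sterol partners. Of the antigen peptide transporters, Tap2 rose in Gpr124-/- (log2 fold change 0.55, adjusted p = 0.0474) and Tap1 did not pass. Cftr, the chloride channel of the family, had too few reads for a test. Of 13 regulators that could be tested, 3 passed upward in Gpr124-/- against WT and 2 downward, beside 10.5% and 9.32% of all genes, and none passed in Gpr124ΔC/ΔC against WT, beside 1.85% and 2.24%. Nr1h3, which encodes the sterol sensor LXRα, an activator of Abca1, fell in Gpr124-/- (means of 4.44 and 1.49 TPM, log2 fold change -1.61, adjusted p = 0.00108), whereas Nr1h2, which encodes LXRβ, was at 57.1 and 58.5 TPM (adjusted p = 0.999). The glucocorticoid receptor gene Nr3c1 also fell (-0.36, adjusted p = 0.025). Ahr, the xenobiotic receptor, rose from 9.74 to 31.2 TPM (log2 fold change 1.62, adjusted p = 0.00991). Pparg, a lipid-sensing receptor and 1 of the 3, had 0 to 4 reads per library in WT, 1 to 5 in Gpr124ΔC/ΔC and 20 to 88 in Gpr124-/- (means of 0.0843, 0.173 and 3.52 TPM), so it could be tested only through the group where it is high. Mylip, an LXR target that encodes a ubiquitin ligase, rose by 0.56 on the log2 scale (adjusted p = 0.0369).

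Of 10 sterol partners that could be tested, 2 fell in Gpr124-/- against WT, beside 9.32% of all genes. Apoe, which encodes the apolipoprotein that accepts cholesterol in the brain, had means of 1106 TPM in WT, 409 TPM in Gpr124ΔC/ΔC and 97.9 TPM in Gpr124-/-. It fell in Gpr124-/- (log2 fold change -3.56, adjusted p = 1.29e-05) and in Gpr124ΔC/ΔC (-1.52, adjusted p = 0.0168), and differed between the mutants (adjusted p = 0.00259). Pltp, the phospholipid transfer protein gene, had means of 1001, 828 and 229 TPM and fell in Gpr124-/- (log2 fold change -2.17, adjusted p = 9.41e-06) but did not pass in Gpr124ΔC/ΔC (adjusted p = 0.458). The lysosomal cholesterol exporters Npc1 and Npc2 did not pass in any comparison, with Npc2 at a mean of 111 TPM in each genotype.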

How the data were processed

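RNA-seq libraries were made from 12 E15.5 forebrain endothelial samples (RNA from sorted cells, SMART-Seq amplification, poly(A) selection, paired-end sequencing on a HiSeq instrument). The authors deposited raw counts per gene for each library and TPM values, in which length-corrected counts share 1 common total. The latter matched TPM recomputed from the counts to within 0.00498% for values of at least 1 TPM. The submitters' notes name bcl2fastq 2.17 and the build mm10. Aligner, counter and strand setting are not given in the sources used here.

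The count test was that of edgeR 4.0.16 under R 4.3.3. After filterByExpr with default settings (count minimum 10, total minimum 15), libraries were scaled by TMM (factors 0.946 to 1.04) and tested with glmQLFit and glmQLFTest in 1 model over the 3 genotypes, with Benjamini-Hochberg adjustment over 16637 genes. The thresholds (adjusted p of 0.05, absolute log2 fold change of 1) are those of the study's methods. TPM served for levels. Values are mean ± SD over 4 embryos, log2 fold changes are given with SE, and 4 embryos per genotype and, for low genes, the read counts limit precision. Alternatives used DESeq2 1.42.0, limma 3.58.1 on log2(TPM + 1) or log2(TPM + 0.1), other filters and factors, the embryo letter as a term, and each library left out. The fit was tested on simulated data. Some genes are included in the counts but not reported here by name. Named members were the barrier pumps, those passing an adjusted p of 0.05 in any comparison, and the 10 highest in WT. The members and lists were chosen with earlier results of these data known.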

Additional observations from a re-analysis of the deposited data

How the results depend on the processing

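Upper-quartile factors, DESeq2, no filter and the fits of 2 genotypes called the same 7 members in Gpr124-/- against WT. Leaving out single libraries gave 6 to 10 members in that comparison, 0 to 2 in Gpr124ΔC/ΔC against WT and 3 to 5 between the mutants, and 1450 to 1824, 257 to 336 and 506 to 1008 genes of all tested, where the reported counts are 1644, 320 and 766. The limma fits on log2(TPM + 1) lost Abcb1b and Abcc1 on the fold threshold, since the pseudocount shrinks the change of low genes, and the filter at a mean of 50 counts removed Abcc3. In Gpr124ΔC/ΔC against WT, where 1 member was reported, 2 members (Abca4 and Abcc6) were called with DESeq2, with no filter, with a mean of at least 50 counts, without WT JE6 and without Gpr124-/- ME5, and 0 in the 3 limma fits, without WT KE8 and without Gpr124ΔC/ΔC LE2. With the letter term the member there was Abcc6 in place of Abca4. Between the mutants, 4 members were reported, 0 were called with the letter term and 2 (Abcc9 and Abcb1a) in both limma fits on log2(TPM + 1). With no fold threshold the members numbered 12, 3 and 8, and all genes 3295, 680 and 1468. Over all genes, the letter term called 846 in Gpr124-/- against WT and 209 between the mutants. The limma fits called 470 (log2(TPM + 1)), 509 (log2(TPM + 0.1)) and 395 (no TPM filter) between the mutants, and the last called 201 in Gpr124ΔC/ΔC against WT. The causes of these differences were not tested beyond those named.

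Where a setting changed a sign, the value did not pass under that setting. With the letter term the log2 fold change was -0.03 for Abcc5 in Gpr124-/- against WT, and -0.17 for Abcb1b and -0.49 for Abcc4 between the mutants. Abcc5 between the mutants ranged from -0.12 to 0.03 as single libraries were left out, and was above 0 without Gpr124ΔC/ΔC LE2 or LE5 or Gpr124-/- ME1. The median over the pumps between the mutants was 0.35 without Gpr124-/- KE4. Among the called members Abcc3 and Abcb1b had the fewest reads in WT, 77 and 191 over 4 libraries, and their values carry the largest counting error.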
